A study of Mus musculus with 12 samples.

Results

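The comparison described here set the livers of 3 mice under acute iron stress directly against the livers of 3 mice treated with a synthetic glucocorticoid, out of 12 mouse livers profiled by bulk RNA-seq. The members were the 3 FeSO4/PBS and the 3 NaCl/DEX libraries of the count table, taken by their labels with every gene of that table, and each difference was taken between the means of these 2 groups. The filter on low counts, the scaling and the spread were estimated over all 12 libraries, the untreated controls included. All 12 mice were female wild type C57BL/6J. FeSO4/PBS mice received iron sulfate (300 mg/kg, i.p.) and then PBS, NaCl/DEX mice received 0.9% NaCl and then dexamethasone (DEX, 10 mg/kg, i.p.), FeSO4/DEX mice received both agents and NaCl/PBS mice neither. The second injection followed the first by 6 h and livers were taken 2 h after it, 8 h in all, so FeSO4 had acted for 8 h and DEX for 2 h. PBS and NaCl were the vehicles, each group held 3 mice and 1 library came from each liver. The libraries held between 16335651 and 23827340 gene counts, and hepatocyte markers such as Alb and Ttr were abundant in all 6 mice of the comparison.

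Glucocorticoids bind the glucocorticoid receptor (GR), a nuclear receptor that moves into the nucleus and either binds DNA at glucocorticoid response elements and induces genes of gluconeogenesis and of anti-inflammatory feedback, or restrains AP-1 and NF-kappaB, the factors behind most inflammatory genes. Free iron drives the formation of reactive oxygen species and lipid peroxides. Hepatocytes answer with ferritin, haem oxygenase and the targets of NRF2, a main transcription factor of the response to oxidative stress. Acute stress can also raise corticosterone, the glucocorticoid that mice make themselves. A difference between the groups combines what iron did with what DEX did, so the values of untreated NaCl/PBS mice are given beside it where they help to place it.

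Of 55414 genes in the table, 13857 had enough counts to be tested. With edgeR, 1570 genes were higher in FeSO4/PBS than in NaCl/DEX mice at a false discovery rate (FDR) of 0.05 or less and a log2 fold change (LFC) above 1, which is 11.3% of the genes tested, and 1439 were lower at an LFC below -1, which is 10.4%. Without the fold change limit 3299 genes (23.8%) passed the FDR in the higher direction and 3122 (22.5%) in the lower one, and these shares are the background for the counts of genes given below. The first principal component of all 12 libraries held 63.6% of the variance and placed all FeSO4 mice on one side and all NaCl mice on the other. FeSO4/PBS mouse 1 stood apart from its group, with a chi-square per gene of 81.4 and 64.9 against its group mates, which differed from each other by 22, while the NaCl/DEX pairs lay between 25.1 and 30. The median LFC of all genes was -0.00187 and moved to -0.169 when libraries were scaled by their totals alone. That scaling gave 1285 higher and 1890 lower genes in place of 1570 and 1439.

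In outline, FeSO4/PBS livers carried more mRNA of haem oxygenase, the metallothioneins, AP-1 members, chemokines, ribosome biogenesis factors and the lipid droplet proteins Cidec, Plin2 and Hilpda. NaCl/DEX livers carried more mRNA of one set of GR targets, of cholesterol synthesis enzymes, of the bile acid enzyme Cyp7a1, of clock output genes such as Dbp and of several hepatocyte transcription factors. A second set of GR targets was higher in the iron-stressed than in the steroid-treated mice.

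**Figure D1:**
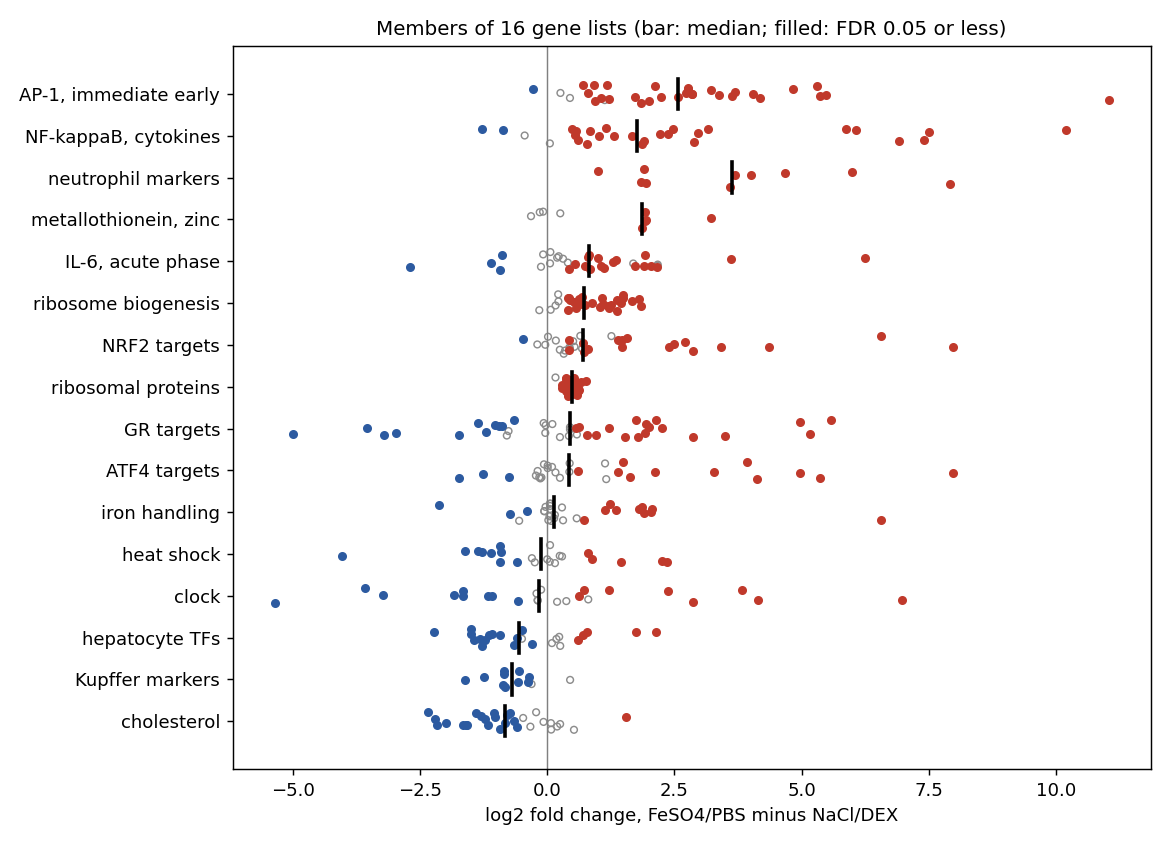
LFC between FeSO4/PBS and NaCl/DEX (horizontal axis, log2) for each tested member of 16 gene lists, with red points higher and blue points lower at an FDR of 0.05 or less, open points not past it and a black bar at the list median. AP-1 genes lie almost wholly to the right with a median of 2.56, cholesterol genes almost wholly to the left with a median of -0.84, and GR targets, heat shock genes and clock genes spread to both sides. Points of genes with no or almost no reads in NaCl/DEX mice, such as Fosl1 and Cxcl2, have a place that depends on the prior count of the fit.

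The first question was how far the GR target genes separate a liver exposed to steroid from one exposed to iron. Of 40 listed GR targets, all tested, 11 were lower and 18 higher under iron by the FDR, against 22.5% and 23.8% of all genes, and the median LFC was 0.45. Tsc22d3 (GILZ, chrX:139440091-139501408, - strand; GRCm39 coordinates here and below), an anti-inflammatory leucine zipper protein, had 351, 371 and 330.3 normalised reads in FeSO4/PBS mice and 4330.2, 3823 and 4089.7 in NaCl/DEX mice. The groups lay far apart and the mice of each were close together. The LFC was -3.54 ± 0.19 (SE), with an FDR of 2.9e-08. NaCl/PBS mice, with 995, 1136 and 1699 reads, lay between the 2 groups, at an LFC of -1.86 for iron and 1.68 for DEX against them, 2 values that share those control mice.

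Fam107a (chr14:14151750-14173507, + strand), an actin-associated protein and a steroid-induced gene, had 28.2, 44.8 and 28.1 normalised reads in FeSO4/PBS mice and 1149.6, 1156 and 948 in NaCl/DEX mice, an LFC of -4.99 ± 0.29 (SE), with an FDR of 4.5e-08. NaCl/PBS mice held 0, 1.87 and 4.23 normalised reads, so both groups of the comparison stood above the untreated mice while the steroid group stood far higher. In FeSO4/DEX mice, which received the steroid on top of iron, Fam107a had 24.2, 25.8 and 49.9 and Tsc22d3 had 407, 358 and 478 normalised reads, near the levels of FeSO4/PBS mice. Of 13818 promoters searched over the 250 bases before the annotated start, on both strands, 38 held the glucocorticoid response element palindrome (GRE), and among the GR targets these were those of Fam107a, Mt1 and Txnip. The promoters of Fam107a and Mt1 are shown because these genes lay on opposite sides of the comparison, the first lower and the second higher in iron-stressed mice. They cover chr14:14159844-14159993, + strand and chr8:94905590-94905709, + strand, both of GRCm39, end at the last base before the start of the canonical transcript, and carry the palindrome in capitals. For Fam107a, and for Txnrd1, Atf3, Chac1, Slc7a11, Ciart and Hmgcs1 below, other annotated transcripts begin further upstream, so that these bases overlap the annotated gene. In Mt1 the capitals nearest the start mark a metal response core, TGCNCNC.
Fam107a: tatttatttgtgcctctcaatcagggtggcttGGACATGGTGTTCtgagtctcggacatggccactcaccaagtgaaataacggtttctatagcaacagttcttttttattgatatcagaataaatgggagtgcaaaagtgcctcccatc
Mt1: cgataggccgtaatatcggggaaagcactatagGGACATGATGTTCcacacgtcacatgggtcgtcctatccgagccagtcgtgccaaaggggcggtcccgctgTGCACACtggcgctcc

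Cyp2b10 (chr7:25597045-25626049, + strand), a drug-metabolising P450, had 1285, 1002 and 803 normalised reads with iron and 9044, 7153 and 8212 with DEX, and its LFC was -2.98 ± 0.24 (SE), with an FDR of 5.4e-07. Ddit4 (REDD1), an inhibitor of mTORC1, had 875, 1138 and 708 normalised reads with iron against 3251, 2921 and 2911 with DEX, an LFC of -1.74 ± 0.21 (SE), with an FDR of 1.8e-05. Fkbp5, the co-chaperone that closes the feedback loop on GR, had 3679, 4122 and 4175 against 9723, 10944 and 9940.4, an LFC of -1.35 ± 0.28 (SE), with an FDR of 0.0014. In all of these the lowest steroid mouse stood above the highest iron mouse. Relative to NaCl/PBS mice the iron group of each was nevertheless higher, by an LFC of 1.72 for Cyp2b10, 3.19 for Ddit4 and 0.89 for Fkbp5, against 4.70, 4.93 and 2.24 for DEX, with the control mice shared between these values. Sgk1, a kinase of salt transport and survival, was likewise lower with iron than with DEX, at an LFC of -0.94 ± 0.22 (SE), with an FDR of 0.0033.

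**Figure D2:**
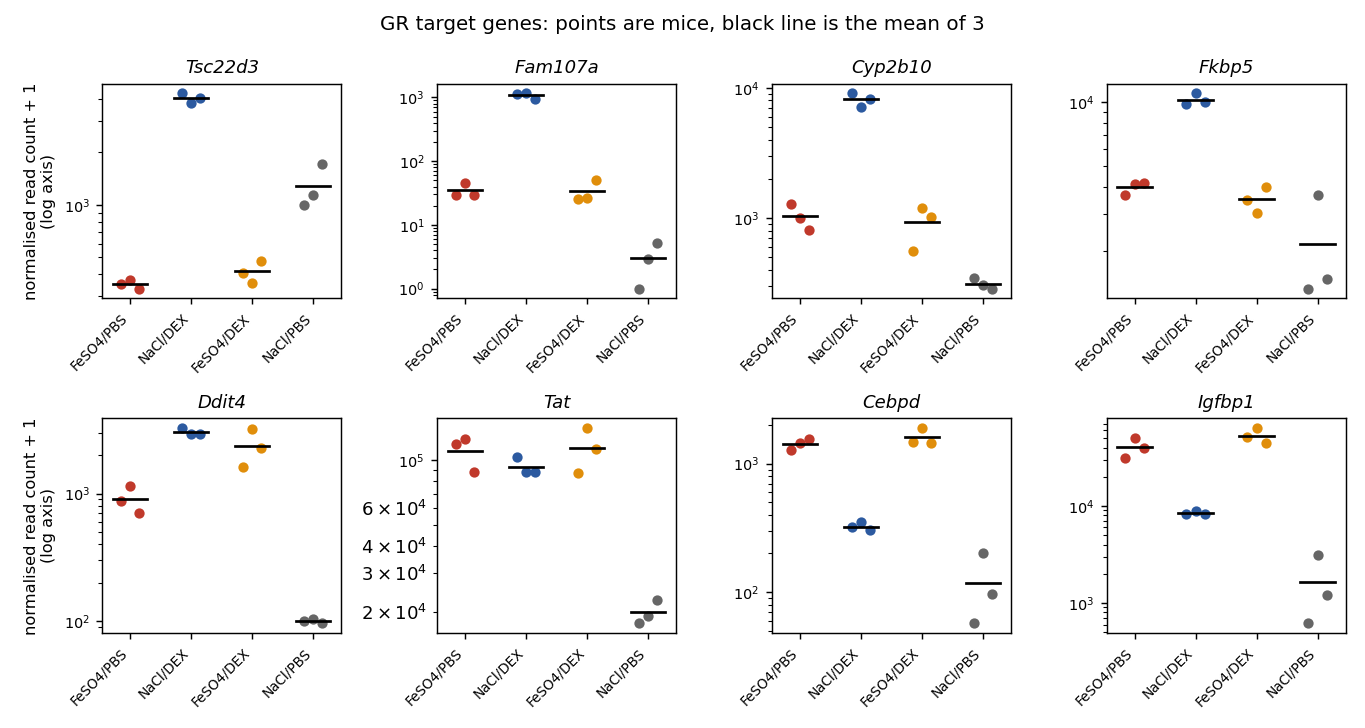
Normalised read count plus 1 (log axis) of 8 GR target genes in the 3 mice of each of the 4 groups, with a black line at the group mean. Tsc22d3, Fam107a, Cyp2b10, Fkbp5 and Ddit4 are highest in NaCl/DEX mice, Tat is level between FeSO4/PBS and NaCl/DEX mice, and Cebpd and Igfbp1 are higher in FeSO4/PBS mice.

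Pck1 (chr2:172994744-173001066, + strand), the rate-setting enzyme of gluconeogenesis, showed the largest loss of reads of any tested gene, from 74106, 79165 and 75434 normalised reads in NaCl/DEX mice to 3377, 14811 and 6516 in FeSO4/PBS mice. The iron mice differed among themselves by several fold while the steroid mice were nearly equal. The LFC was -3.21 ± 0.42 (SE), with an FDR of 3.3e-05, and in FeSO4/DEX mice, which also received DEX, Pck1 held 6867, 14789.6 and 12857 reads. NaCl/PBS mice held 43527, 48206 and 47515. Against them Pck1 was lower under iron (LFC -2.5, FDR 1.6e-04), while DEX did not pass the test (LFC 0.72, FDR 0.26), with the control mice shared.

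GR targets that were higher under iron included genes of growth arrest and of fasting metabolism. Gadd45a, a growth arrest and DNA damage gene, had 1628, 2277 and 1842 normalised reads with iron and 41.9, 32.9 and 46.3 with DEX, an LFC of 5.57 ± 0.33 (SE), with an FDR of 5.1e-08. Txnip, an inhibitor of thioredoxin and of glucose uptake, had 10483, 21723 and 25012 against 1603, 1746 and 1756, an LFC of 3.49 ± 0.38 (SE), with an FDR of 7.0e-06. Cdkn1a (p21), the cell cycle inhibitor, had 9851, 8603 and 9167 against 2020.2, 2765 and 2147, an LFC of 1.99 ± 0.18 (SE), with an FDR of 1.2e-06. For each of these genes the iron mice formed the upper group without overlap. Cdkn1a was high in both treated groups, since against NaCl/PBS mice its LFC was 7.35 for iron and 5.36 for DEX.

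Cebpd, an acute-phase C/EBP factor, had 1269, 1435 and 1564 normalised reads with iron against 319, 348 and 302 with DEX, an LFC of 2.14 ± 0.29 (SE), with an FDR of 4.8e-05. Igfbp1, a stress-induced binding protein of insulin-like growth factors, had 30891, 49694 and 39743 against 8278, 8875 and 8229.8, an LFC of 2.25 ± 0.41 (SE), with an FDR of 5.2e-04. Pdk4, the kinase that shuts off pyruvate oxidation, had 515, 14233 and 14043 normalised reads in the 3 FeSO4/PBS mice and 187, 377 and 237 in the NaCl/DEX mice. FeSO4/PBS mouse 1 lay near the steroid group while mice 2 and 3 stood far above it, and the LFC of 5.16 (FDR 2.5e-04) averages over that split. Tat, the tyrosine aminotransferase long used as a glucocorticoid reporter in liver, had 119068, 124474 and 87754 normalised reads with iron against 103192, 87816 and 87952 with DEX, and its LFC of 0.25 did not pass the test (FDR 0.29).

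The receptor itself was lower by a smaller amount. Nr3c1, which encodes GR, had 796, 1218 and 1083 normalised reads in FeSO4/PBS and 1646, 1368 and 1518 in NaCl/DEX mice, an LFC of -0.55 ± 0.15 (SE), with an FDR of 0.0074. Nr3c2, the mineralocorticoid receptor, was lower to a greater extent, at an LFC of -1.66 ± 0.19 (SE), with an FDR of 8.6e-06. Of 12 genes of GR and its co-factors 3 were higher and 2 lower, and the largest of these differences was the gain of Nrip1, a nuclear receptor co-repressor, at an LFC of 1.76 (FDR 1.9e-05).

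The second question was which iron and oxidative stress genes mark the iron-stressed liver. Hmox1 (haem oxygenase 1, chr8:75820241-75827217, + strand), which degrades haem and releases its iron, had 40304, 29684 and 39664 normalised reads in FeSO4/PBS mice and 388, 439 and 339 in NaCl/DEX mice. The lowest iron mouse stood far above the highest steroid mouse. The LFC was 6.55 ± 0.26 (SE), with an FDR of 9.1e-09, the smallest of all genes tested. Of 29 iron handling genes 10 were higher and 3 lower, against 23.8% and 22.5% of all genes.

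Both ferritin chains, which store iron, were higher. Fth1 had 79351, 45016 and 47138 normalised reads with iron and 21567, 21470.0 and 24360.1 with DEX (LFC 1.35, FDR 7.5e-05), and Ftl1 had an LFC of 1.14 (FDR 6.3e-04), although processed pseudogenes of both can share their reads. Slc39a14 (ZIP14, chr14:70540678-70588914, - strand), an importer of non-transferrin-bound iron, had 37322, 36814 and 36780.3 against 11438, 9112 and 10103, an LFC of 1.86 ± 0.18 (SE), with an FDR of 2.4e-06. Hamp, the hormone hepcidin that closes iron export and has a close paralog in Hamp2, had 56028, 34725 and 25888 against 15443, 8068 and 10101, an LFC of 1.80 ± 0.34 (SE), with an FDR of 6.6e-04. Id1, a BMP target gene, was higher by an LFC of 2.07 (FDR 9.2e-06).

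Among the genes that were lower, Slc40a1 (ferroportin, chr1:45947211-45965683, - strand), the iron exporter, had 1032, 844 and 1025 normalised reads with iron and 3781, 4971 and 3978 with DEX. Mice within each group agreed closely and the LFC was -2.13 ± 0.14 (SE), with an FDR of 9.9e-08. Ncoa4, the receptor that delivers ferritin for degradation, and Aco1, the iron regulatory protein 1, were lower by smaller amounts, at LFCs of -0.74 (FDR 0.003) and -0.40 (FDR 0.0061). Tfrc, the transferrin receptor, had 476, 847 and 811 normalised reads with iron against 1422, 668 and 1043 with DEX, the groups overlapped and the LFC of -0.55 did not pass the test (FDR 0.075), while without NaCl/DEX mouse 2 it was -0.80 and passed (FDR 0.0099).

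Of 32 NRF2 targets 17 were higher and 1 lower, with a median LFC of 0.70. Among the 30 with at least 10 reads in every library 15 were higher and 1 lower, with a median LFC of 0.66. The lower gene was the organic anion exporter Abcc2 (LFC -0.48, FDR 0.031), which did not pass without FeSO4/PBS mouse 1 (FDR 0.083), NaCl/DEX mouse 1 (0.11) or NaCl/DEX mouse 3 (0.053). Txnrd1 (thioredoxin reductase 1) had 15762, 9019 and 9973 normalised reads with iron and 2237, 1783 and 2168 with DEX, an LFC of 2.49 ± 0.20 (SE), with an FDR of 4.0e-07. Srxn1 (sulfiredoxin), which repairs oxidised peroxiredoxins, had 9885, 5456 and 4927 against 1131, 762 and 878, an LFC of 2.87 ± 0.27 (SE), with an FDR of 1.6e-06. Sqstm1 (p62), the autophagy receptor that also frees NRF2, was higher at an LFC of 2.39 (FDR 3.5e-07). Gclc and Gclm, the subunits of the enzyme that sets glutathione synthesis, were higher at LFCs of 1.47 (FDR 7.3e-04) and 0.80 (FDR 2.2e-04).

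FeSO4/PBS mouse 1 had the highest value of its group for Txnrd1, Srxn1 and Gclc, and without it 15 of the 32 genes were higher. Osgin1, an oxidative stress-induced growth inhibitor, had 11516, 3128 and 5249 normalised reads with iron against 221, 385 and 365 with DEX (LFC 4.35, FDR 1.8e-06), and here DEX alone lay below NaCl/PBS at an LFC of -3.22. The antioxidant response core TGACNNNGC lay within 250 bases of the start in 10.4% of all tested promoters and in 11% of those of the genes called higher. The promoters of Txnrd1 (chr10:82694913-82695012, + strand) and Gclm (chr3:122039026-122039125, + strand) are shown, with that core in capitals on the reverse strand, as examples of members that moved together and hold it.
Txnrd1: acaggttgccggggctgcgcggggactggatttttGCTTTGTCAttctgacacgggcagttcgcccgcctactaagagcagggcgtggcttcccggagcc
Gclm: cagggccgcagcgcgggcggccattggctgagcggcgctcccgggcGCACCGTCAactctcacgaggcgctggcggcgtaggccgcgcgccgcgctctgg

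Of 29 tested ATF4 targets, the genes of the integrated stress response, 11 were higher and 3 lower, with a median LFC of 0.43. Some members, such as Slc7a11, had almost no reads in NaCl/DEX mice. Among the 24 with at least 10 reads in every library 9 were higher and 3 lower, and the median LFC was 0.11. Chac1 (chr2:119180757-119184866, + strand), which degrades glutathione, had 1518, 1084 and 1067 normalised reads with iron and 45.1, 90.3 and 74.5 with DEX, an LFC of 4.12 ± 0.28 (SE), with an FDR of 1.1e-07. Atf3, a stress-induced repressor, had 452, 2318 and 1194 against 31.1, 21.6 and 43.3, an LFC of 5.37 ± 0.57 (SE), with an FDR of 5.5e-06. Slc7a11, the cystine importer that feeds glutathione synthesis, had 228, 64.1 and 53.6 normalised reads in FeSO4/PBS mice, highest in mouse 1, and 1 read in all in the 3 NaCl/DEX mice (FDR 3.7e-05). Slc3a2, the partner subunit of Slc7a11, was higher at an LFC of 1.63 (FDR 5.3e-06), as was Atf4 itself at 1.40 (FDR 8.0e-05).

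The ATF4 targets did not all move one way. Cebpg, a partner of ATF4 on DNA, was lower at an LFC of -1.27 (FDR 1.6e-06). Fgf21, the hepatokine of amino acid and mitochondrial stress, had 433, 72.2 and 255 normalised reads with iron and 1.07, 14.1 and 8.05 with DEX, an LFC of 4.97 ± 0.85 (SE), with an FDR of 3.0e-04, higher under iron with a wide spread in both groups. The C/EBP-ATF core TGATGNAA was found in 2.25% of all tested promoters and in those of 7 of the 29 ATF4 genes. The promoters of Atf3 (chr1:190915538-190915667, - strand), Chac1 (chr2:119181509-119181688, + strand) and Slc7a11 (chr3:50398064-50398163, - strand) carry it in capitals, with a pair of copies on opposite strands in Slc7a11.
Atf3: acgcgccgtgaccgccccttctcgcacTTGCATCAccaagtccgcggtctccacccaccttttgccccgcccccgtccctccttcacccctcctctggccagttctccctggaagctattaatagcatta
Chac1: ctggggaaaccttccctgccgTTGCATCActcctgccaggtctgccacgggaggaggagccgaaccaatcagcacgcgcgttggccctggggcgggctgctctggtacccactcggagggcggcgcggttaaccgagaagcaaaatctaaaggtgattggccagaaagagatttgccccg
Slc7a11: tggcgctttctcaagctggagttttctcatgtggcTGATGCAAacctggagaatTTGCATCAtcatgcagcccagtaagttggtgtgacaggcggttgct

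**Figure D3:**
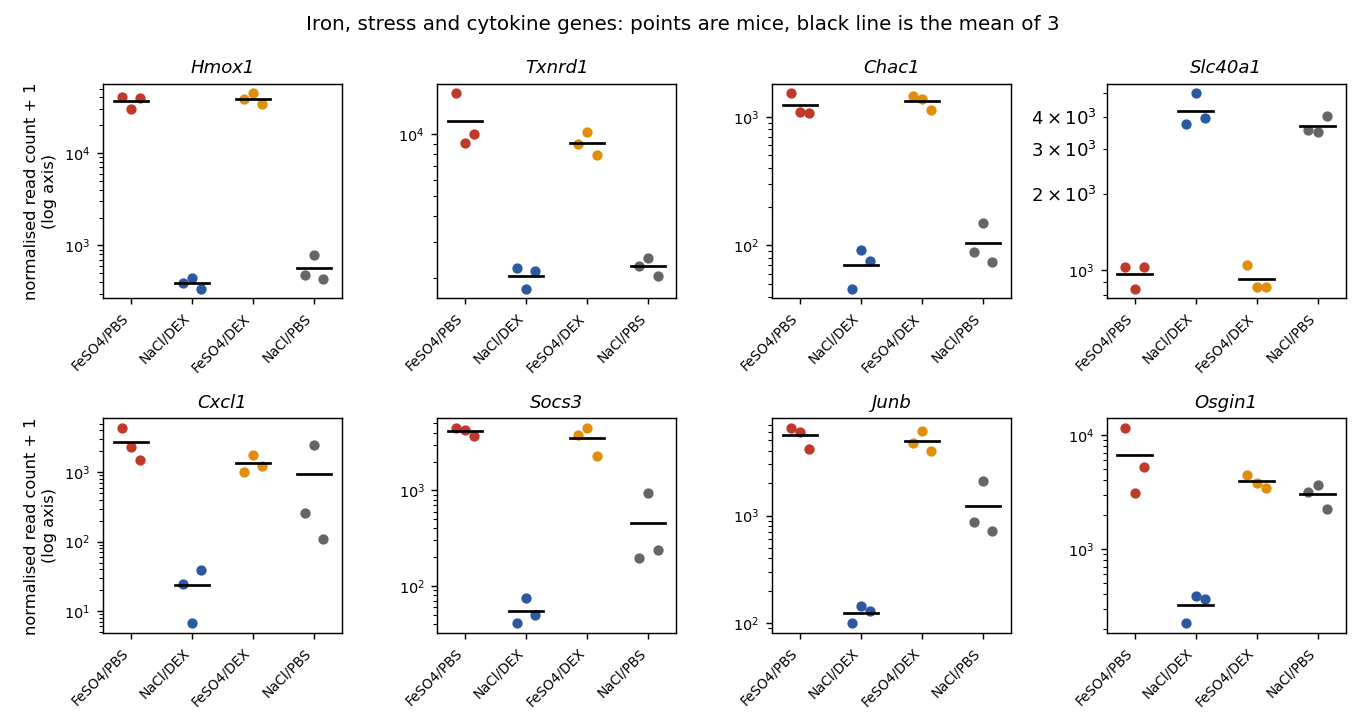
Normalised read count plus 1 (log axis) of 8 iron, stress and cytokine genes in the 3 mice of each of the 4 groups, with a black line at the group mean. Hmox1, Txnrd1 and Chac1 are high and Slc40a1 is low in both groups that received FeSO4, while Cxcl1, Socs3, Junb and Osgin1 are lowest in NaCl/DEX mice.

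Of 16 tested genes of ferroptosis defence and lipid peroxidation 9 were higher and 1 lower, or 2 lower without FeSO4/PBS mouse 2 and with scaling by library totals. Among the 14 with at least 10 reads in every library 7 were higher and 1 lower. The lower gene was Aifm2 (FSP1), which reduces ubiquinone at the membrane, with 265, 316 and 251 normalised reads under iron and 1019, 955 and 966 under DEX, an LFC of -1.82 ± 0.11 (SE), with an FDR of 5.1e-08. Sat1, a polyamine acetyltransferase, was higher at an LFC of 2.09 (FDR 1.3e-06). Metallothioneins, which bind zinc and copper, were higher: Mt1 had 77569, 51132 and 50032 normalised reads with iron against 15220.1, 14085 and 17426 with DEX, an LFC of 1.94 ± 0.28 (SE), with an FDR of 9.2e-05. Mt2 followed at 1.91 (FDR 0.0013). Slc30a10, an exporter of manganese, had 4902, 3482 and 4280.0 against 333, 554 and 479, an LFC of 3.21 ± 0.22 (SE), with an FDR of 1.1e-07. Both metallothioneins were also above NaCl/PBS mice in the steroid group, at LFCs of 1.19 and 1.46.

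The chaperone genes split. Of 22 tested heat shock genes 9 were lower and 5 higher. Hspa1b, an inducible HSP70, had 16.1, 3.05 and 12.8 normalised reads in FeSO4/PBS and 129.9, 136 and 259.8 in NaCl/DEX mice, an LFC of -4.04 ± 0.42 (SE), with an FDR of 4.8e-06, although its near-identical neighbour Hspa1a can share its reads. Dnaja1, an HSP40 co-chaperone, had 1539, 1549 and 1296 against 4106, 3255 and 3910.5, an LFC of -1.36 ± 0.15 (SE), with an FDR of 8.8e-06, and Chordc1, an HSP90 co-chaperone, was lower at -1.62 (FDR 6.6e-07).

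In the opposite direction, the small heat shock protein Hspb8 had 17643, 16881 and 15063 normalised reads with iron against 3446, 2966 and 3241 with DEX, an LFC of 2.36 ± 0.12 (SE), with an FDR of 1.8e-08. Its partner Bag3, with which it acts in chaperone-assisted autophagy, had 2988, 1945 and 1882 against 408, 521 and 498, an LFC of 2.26 ± 0.19 (SE), with an FDR of 6.2e-07. The heat shock core GAANNTTC lay in 5.19% of all tested promoters and in those of 7 heat shock genes, one of which was Hspa1b (chr17:35178215-35178344, - strand), shown with the core in capitals because it had the lowest LFC in its list.
Hspa1b: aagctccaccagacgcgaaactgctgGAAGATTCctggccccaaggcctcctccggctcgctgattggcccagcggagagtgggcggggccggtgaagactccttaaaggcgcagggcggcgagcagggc

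Of 25 genes of the unfolded protein response of the endoplasmic reticulum 4 were higher and 8 lower, and 4 were lower without NaCl/DEX mouse 2. Xbp1, its main transcription factor, and Eif2ak3 (PERK), a sensor kinase, were higher at LFCs of 1.47 (FDR 1.0e-04) and 1.16 (FDR 2.2e-04). Ern1 (IRE1), the sensor that splices Xbp1, and Edem1, a factor of protein degradation, were lower at -0.83 (FDR 5.2e-04) and -0.74 (FDR 4.4e-04).

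The third question concerned AP-1, NF-kappaB and other inflammatory genes. Of 33 tested AP-1 and immediate early genes 29 were higher and 1 lower under iron, against 23.8% and 22.5% of all genes, and the median LFC was 2.56. Some members had no or few reads in NaCl/DEX mice and passed the filter on low counts through other groups. Among the 25 with at least 10 reads in every library 22 were higher and 1 lower, with a median LFC of 2.11. Fosl1 (FRA1), an AP-1 subunit, had 232, 289.9 and 270.4 normalised reads in FeSO4/PBS mice and no read in any NaCl/DEX library, at least 87.4-fold higher with the limit set at 3 reads per library. Junb (chr8:85701113-85705359, - strand) had 6488, 6004 and 4152 against 98.8, 144 and 128, an LFC of 5.49 ± 0.39 (SE), with an FDR of 1.8e-07. Jund had 6447, 7829 and 6409.8 against 983, 968 and 1072, an LFC of 2.77 ± 0.14 (SE), with an FDR of 1.8e-08. Fos, whose mRNA is short-lived, had 179, 667 and 299.7 against 69.8, 39.5 and 50.3, an LFC of 2.85 ± 0.72 (SE), with an FDR of 0.0053.

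Against NaCl/PBS mice 31 of the 33 AP-1 list members were higher and 0 lower under iron, with a median LFC of 2.54. Under DEX 9 were higher and 5 lower, with a median of 0.13, and the 2 comparisons share those control mice. Single AP-1 genes did not stand alike against the untreated mice. Junb in NaCl/DEX mice was below NaCl/PBS at an LFC of -3.31 while Jund lay at 0.08, and the iron group was above NaCl/PBS at 2.18 and 2.85, with the control mice shared. Myc, the growth factor-responsive transcription factor, had 1002, 1966 and 1451 normalised reads with iron against 654, 631 and 624 with DEX (LFC 1.21, FDR 0.0028) and was above NaCl/PBS in both groups. Mafg, a small MAF partner of NRF2, was the AP-1 list member that was lower, at an LFC of -0.29 (FDR 0.046), but without any one of the 6 mice it did not pass (FDR 0.055 to 0.16).

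Of 28 tested genes of NF-kappaB feedback and cytokines 24 were higher and 2 lower, with a median LFC of 1.76. Some of these genes had no or few reads in NaCl/DEX mice, and among the 21 with at least 10 reads in every library 17 were higher and 2 lower, with a median LFC of 1.01. Cxcl1 (chr5:91039094-91040974, + strand), a neutrophil chemokine, had 4316, 2301 and 1502 normalised reads with iron and 23.6, 5.64 and 38.3 with DEX, an LFC of 6.92 ± 1.10 (SE), with an FDR of 1.7e-04. Its neighbour Cxcl2, 10755 bases further on, had 106, 192 and 143 and no read in any NaCl/DEX library, at least 48.7-fold higher. Il1b, the inflammasome cytokine, had 97.8, 127 and 90.5 against 2.15, 2.82 and 0, an LFC of 5.88 ± 0.95 (SE), with an FDR of 2.0e-04. Relb, a subunit of NF-kappaB, had 178, 158 and 122 against 12.9, 26.3 and 19.1, an LFC of 2.96 ± 0.34 (SE), with an FDR of 1.1e-05.

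In untreated mice some of these genes were also above the steroid group. Il1b had 36, 212 and 29.6 normalised reads in NaCl/PBS mice, an LFC of 0.20 for iron and -5.67 for DEX. Cxcl1 had 260.4, 2446 and 109 in NaCl/PBS mice, at 1.53 and -5.39. NaCl/PBS mouse 2 was far above its group mates for both. Against the untreated mice 13 genes of the list were higher and 2 lower under iron, while 4 were higher and 13 lower under DEX, 2 comparisons that share those mice. The 2 genes lower under iron than under DEX were Cxcl12, the homing chemokine of stromal cells (-1.29, FDR 6.2e-06), and the adhesion molecule Vcam1 (-0.88, FDR 0.021). Vcam1 did not pass without FeSO4/PBS mouse 1 (FDR 0.072) or NaCl/DEX mouse 2 (FDR 0.059).

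Neutrophil markers and Kupffer cell markers lay on opposite sides of the comparison. Of 12 listed neutrophil markers 10 passed the filter on low counts, Ngp among them with no read in NaCl/DEX mice and so through the other groups, so their number past the test is not counted here. The 4 with at least 10 reads in every library, Lcn2 among them, were all higher in FeSO4/PBS mice, with a median LFC of 2.74. One example was S100a9 with 408, 357 and 315 normalised reads against 20.4, 40.4 and 22.2 (LFC 3.69, FDR 2.2e-06). Lcn2 had an LFC of 1.90 (FDR 0.0054), which was 1.17 without FeSO4/PBS mouse 1 (FDR 0.034). Without Lcn2, which hepatocytes also make, the 11 listed markers summed to 961.6 to 1172 normalised reads in FeSO4/PBS and 95.5 to 131 in NaCl/DEX mice. In NaCl/PBS mice that sum was 141.4 to 327.3, above the steroid group. The sum includes Ngp, Ly6g and Stfa2l1, which had no read in NaCl/DEX mice. Of the 12 Kupffer cell markers 10 were lower, for example Cd163 with 328, 399 and 389 against 933, 953 and 771 (LFC -1.25, FDR 0.0057), and their sum ranged from 6749 to 7768 and from 10684 to 12280. No Kupffer cell marker was higher, or 1 without FeSO4/PBS mouse 1. Of 5 tested monocyte markers and 9 tested markers of T, B and NK cells 1 each was higher and none lower, the first lost without FeSO4/PBS mouse 1 or 2 or NaCl/DEX mouse 1 or 3 and the second without FeSO4/PBS mouse 2 or 3 or NaCl/DEX mouse 2 or 3. Ngp had no read in NaCl/DEX mice and at least 22 reads in each FeSO4/PBS library. Ly6g and Stfa2l1 also had no read in NaCl/DEX mice, but had too few reads over the series to be tested. No difference is read from them on their own. In bulk liver fewer cells of a type cannot be told apart from less RNA per cell, and the part of these cells in the cytokine values was not tested.

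In the IL-6 and STAT3 acute-phase list 18 of 33 tested genes were higher and 4 lower. Socs3 (chr11:117856905-117860898, - strand), the feedback inhibitor of STAT3, had 4442, 4277 and 3732 normalised reads with iron and 39.7, 73.3 and 49.3 with DEX, an LFC of 6.25 ± 0.57 (SE), with an FDR of 1.5e-06. Cd14, the endotoxin co-receptor, had 1183, 1644 and 1423 against 185, 83.7 and 83.6, an LFC of 3.60 ± 0.37 (SE), with an FDR of 4.6e-06. The fibrinogen chains Fga, Fgb and Fgg were higher at LFCs of 0.80, 1.00 and 1.29 (FDR 0.0067, 6.2e-04 and 8.8e-05). Fgg had the largest gain of normalised reads of any gene with an LFC above 1, which Fgb misses by rounding, from 96376, 116084 and 79655 to 290800.4, 196016 and 227026.

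Other acute-phase genes were lower or did not separate. Saa4, the constitutive serum amyloid A, had 3168, 1952 and 1829 normalised reads with iron against 16793, 14952 and 13198 with DEX, an LFC of -2.69 ± 0.23 (SE), with an FDR of 7.7e-07. Crp and Apcs, the pentraxins, were lower at LFCs of -1.11 (FDR 7.7e-04) and -0.94 (FDR 0.0011). Saa1, whose reads can be shared with Saa2, had 101804, 17532 and 14363 normalised reads with iron against 25783, 12346 and 3342 with DEX and did not pass the test (LFC 1.69, FDR 0.078). It passed without FeSO4/PBS mouse 2, FeSO4/PBS mouse 3 or NaCl/DEX mouse 1, with FDRs of 0.042, 0.037 and 0.03. When single mice were left out, 13 to 19 acute-phase genes were higher in place of 18.

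Of 28 interferon-stimulated genes 8 were higher and 8 lower, near the shares of 23.8% and 22.5% among all genes. Mx2 and Nlrc5, an antiviral GTPase and the transactivator of MHC class I, were higher at LFCs of 1.88 (FDR 1.7e-06) and 1.56 (FDR 1.2e-06). Usp18, the enzyme that removes ISG15 from proteins, was lower at -1.65 (FDR 5.8e-06).

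The clock genes separated the groups in both directions, with 8 of 24 higher and 9 lower. Among the 21 with at least 10 reads in every library 6 were higher and 8 lower. The circadian clock is a feedback loop in which BMAL1 with CLOCK or NPAS2 drives Per, Cry, Nr1d1 and the output factors Dbp, Tef and Hlf, and GR induces Per1. Per3 (chr4:151081373-151129140, - strand) had 29.2, 5.09 and 6.38 normalised reads with iron and 815, 406 and 529.6 with DEX, an LFC of -5.36 ± 0.42 (SE), with an FDR of 4.0e-07. Dbp had 81.6, 70.2 and 75.2 against 828, 541 and 762, an LFC of -3.23 ± 0.33 (SE), with an FDR of 3.7e-06. Bmal1 ran the other way with 219.7, 370.3 and 517 against 18.2, 34.8 and 23.2, an LFC of 3.84 ± 0.40 (SE), with an FDR of 4.8e-06.

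Per1 also ran the other way with 1511, 2153 and 1741 normalised reads with iron against 735, 835 and 759 with DEX, an LFC of 1.21 ± 0.17 (SE), with an FDR of 6.1e-05. Npas2 had 27.2, 64.1 and 82.9 normalised reads under iron and 1 read in all in the NaCl/DEX mice. Per3 and Dbp were highest in NaCl/PBS mice, with 1651, 1340.0 and 1139 and 2914, 1966 and 2309.9 normalised reads. Nr1d1 (REV-ERB alpha), the repressor of Bmal1, had 1183, 2260.4 and 2625 normalised reads with iron, 148, 412 and 272 with DEX and 1900.3, 1058 and 1854 in NaCl/PBS mice, an LFC of 2.86 ± 0.36 (SE), with an FDR of 2.2e-05. For Nr1d1 the steroid mice stood apart from both other groups, at an LFC of -2.53 against NaCl/PBS.

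Usp2, a deubiquitinase and clock output, had 132, 183 and 81.6 normalised reads with iron against 1741, 1229 and 1826 with DEX, an LFC of -3.58 ± 0.32 (SE), with an FDR of 1.2e-06, and Ciart, a repressor of BMAL1, had 531, 543 and 406 against 1122, 923 and 1091, an LFC of -1.08 ± 0.19 (SE), with an FDR of 3.4e-04. Their promoters (chr9:43978134-43978263, + strand and chr3:95789557-95789686, - strand) are shown with the clock E-box CACGTG in capitals because both genes were lower and hold 1 and 3 copies. The E-box lay in 7.6% of all tested promoters and in those of 6 of the 24 clock genes, Per1 among them. The time of day at which livers were taken was not given in the sources used here.
Usp2: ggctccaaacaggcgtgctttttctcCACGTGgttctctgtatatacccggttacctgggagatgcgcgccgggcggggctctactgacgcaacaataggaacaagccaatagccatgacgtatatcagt
Ciart: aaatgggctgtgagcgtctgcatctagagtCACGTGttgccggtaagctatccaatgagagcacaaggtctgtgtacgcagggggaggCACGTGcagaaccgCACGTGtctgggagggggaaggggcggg

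Cholesterol genes were mostly lower under iron, with 19 of 29 lower, 1 higher, or 2 without FeSO4/PBS mouse 1 or mouse 3, and a median LFC of -0.84. Idi1 (chr13:8935537-8942487, + strand), the isopentenyl diphosphate isomerase, had 308, 459 and 304 normalised reads with iron against 1609, 1619 and 1617 with DEX, an LFC of -2.18 ± 0.33 (SE), with an FDR of 1.2e-04. Hmgcs1, the synthase at the head of the pathway, had 4703, 3901 and 2639.9 against 16808, 13623 and 14625, an LFC of -2.0 ± 0.29 (SE), with an FDR of 8.6e-05. The groups did not overlap for either enzyme.

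The regulator Srebf2 (SREBP-2), which drives this pathway when sterols are low, was lower at an LFC of -0.84 (FDR 6.1e-05), with 1103, 1101 and 1104 normalised reads with iron against 2086, 2019 and 1821 with DEX. The gene that was higher was Abca1, the exporter of cholesterol, with 11425, 12596 and 11308 against 4462, 3882 and 3746, an LFC of 1.55 ± 0.12 (SE), with an FDR of 2.6e-07. Against NaCl/PBS mice Hmgcs1 stood at an LFC of -2.26 for iron and -0.26 for DEX, the controls being shared. The sterol response core TCACNCCAC lay in 1.11% of tested promoters and, in this list, in that of Hmgcs1 (chr13:120151732-120151981, + strand), shown with the core in capitals.
Hmgcs1: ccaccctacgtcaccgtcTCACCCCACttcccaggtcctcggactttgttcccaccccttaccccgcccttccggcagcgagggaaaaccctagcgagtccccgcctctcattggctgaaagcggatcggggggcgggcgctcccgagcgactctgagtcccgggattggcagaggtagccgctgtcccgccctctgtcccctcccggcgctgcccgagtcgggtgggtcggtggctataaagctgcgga

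**Figure D4:**
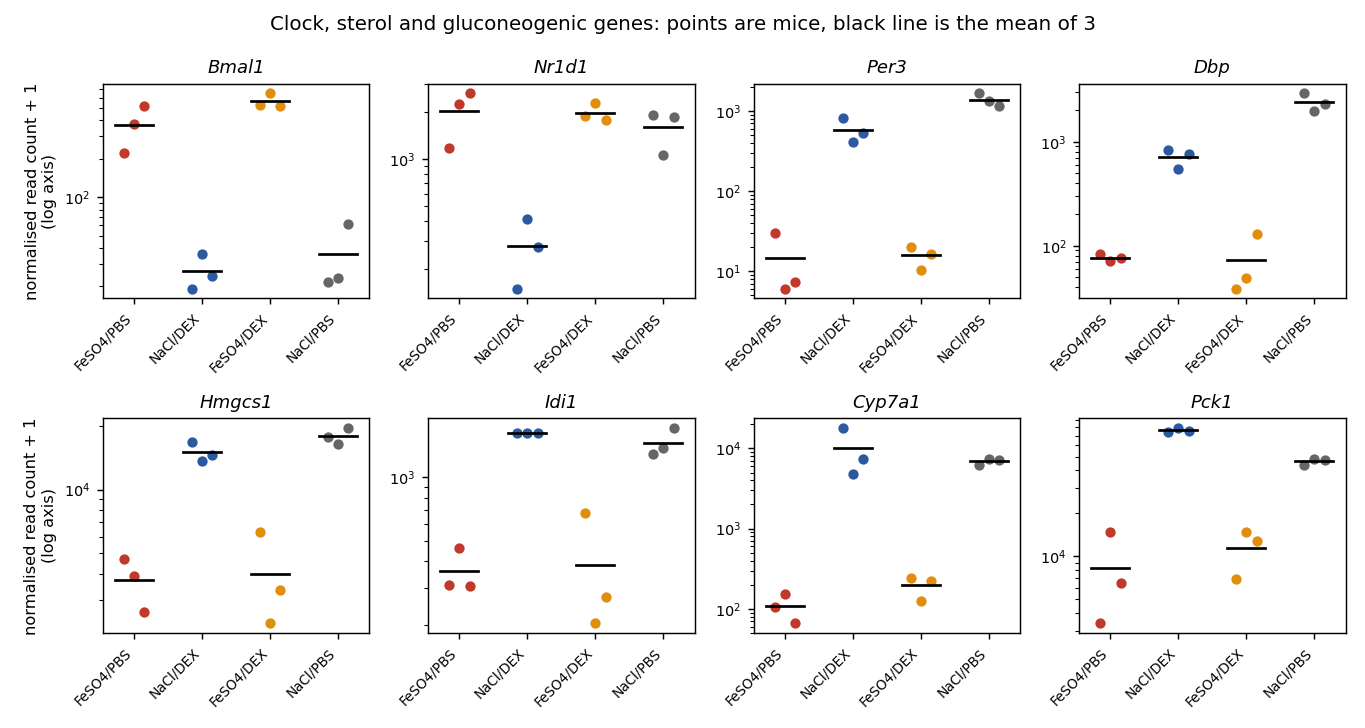
Normalised read count plus 1 (log axis) of 8 clock, sterol and gluconeogenic genes in the 3 mice of each of the 4 groups, with a black line at the group mean. Per3, Dbp, Hmgcs1, Cyp7a1 and Pck1 are low in both FeSO4 groups and Bmal1 is high in them, while Nr1d1 is lowest in NaCl/DEX mice.

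Cyp7a1 (chr4:6265612-6275633, - strand), the rate-limiting enzyme of bile acid synthesis, had 104, 153 and 65.0 normalised reads with iron and 17870.3, 4804 and 7276 with DEX. The steroid mice varied among themselves but all stood far above the iron mice and the LFC was -6.53 ± 0.50 (SE), with an FDR of 3.1e-07. Its activator Nr5a2 (LRH-1) was lower at an LFC of -1.15 (FDR 8.3e-06). Hsd3b7, a later enzyme of the pathway, was higher at 2.23 (FDR 1.6e-06). Of 24 tested bile acid genes 4 were higher and 6 lower, against 23.8% and 22.5% of all genes, and 2 were higher without NaCl/DEX mouse 2 or mouse 3. Scaling by library totals gave 2 higher and 11 lower.

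In glucose metabolism the enzymes at the 2 ends of gluconeogenesis ran in opposite directions, Pck1 being lower and G6pc1, which releases glucose, higher with 6529, 3371 and 3993 normalised reads against 745, 1969 and 1321 (LFC 1.78, FDR 0.0043). Ppp1r3c, a glycogen-targeting subunit of protein phosphatase 1, had 380.0, 315 and 409 against 2986, 3121 and 2431, an LFC of -2.95 ± 0.51 (SE), with an FDR of 3.2e-04. Irs2, the insulin receptor substrate, had 702, 1964 and 1256 against 143, 279 and 117, an LFC of 2.86 ± 0.42 (SE), with an FDR of 9.1e-05. Gdf15, a stress hormone that acts on the brainstem, had 1299, 3304 and 2664 against 129, 451 and 169, an LFC of 3.27 ± 0.43 (SE), with an FDR of 3.7e-05.

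Cidec, Plin2 and Hilpda, whose proteins act at lipid droplets, were higher under iron and were picked by the size of their change, not as a list. Cidec, which fuses lipid droplets, had 1831, 1441 and 1894 normalised reads with iron and 27.9, 48.9 and 10.1 with DEX, an LFC of 5.87 ± 0.44 (SE), with an FDR of 2.6e-07. Plin2, a coat protein of droplets, had 26679.7, 22149 and 26116 against 1979, 3398 and 3344, an LFC of 3.10 ± 0.21 (SE), with an FDR of 1.3e-07. Hilpda (chr6:29272409-29276301, + strand), an inhibitor of lipolysis, had 316, 1815 and 1018 against 7.51, 15 and 15.1, an LFC of 6.36 ± 0.61 (SE), with an FDR of 2.3e-06, lowest among the iron mice in mouse 1. The next gene on the same strand, Garin1a, 3290 bases beyond it, showed the same order of iron mice with 39.3, 397 and 115 normalised reads and 1 read in all in NaCl/DEX mice.

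The lists of lipid genes had shares near those of all genes, 23.8% higher and 22.5% lower. Of 30 genes of fatty acid oxidation and PPAR-alpha targets, Cidec and Plin2 among them, 7 were higher and 5 lower, with a median LFC of -0.04, and the lower ones numbered 3, 2 and 3 without FeSO4/PBS mouse 2, NaCl/DEX mouse 2 and NaCl/DEX mouse 3. Of 20 fatty acid synthesis genes 4 were higher and 5 lower, with 2 higher without NaCl/DEX mouse 1 or with scaling by library totals and 9 higher without NaCl/DEX mouse 3. The lipogenic regulator Srebf1 was higher at an LFC of 0.87 (FDR 0.0016), while Elovl6, Dgat2 and Fads2, enzymes of elongation, triglyceride assembly and desaturation, were lower at -1.51, -1.19 and -1.18 (FDR 6.5e-06, 3.4e-05 and 4.0e-05). Ppara, the nuclear receptor of fatty acid oxidation, had 712, 1873 and 1775 normalised reads with iron against 3148, 3012 and 3043 with DEX, an LFC of -1.08 ± 0.26 (SE), with an FDR of 0.0035.

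The 24 listed transcription factors of hepatocytes included hormone-related ones such as Klf15 and Thrb. Of the 24, 14 were lower and 5 higher under iron, with a median LFC of -0.55. Foxa3, a pioneer factor, had 199, 223 and 274 normalised reads with iron and 1055, 909 and 1288 with DEX, an LFC of -2.23 ± 0.21 (SE), with an FDR of 1.6e-06. Klf15, a GR-induced factor of amino acid breakdown, had 1176, 1975 and 1407 against 4596, 4036 and 4345, an LFC of -1.51 ± 0.25 (SE), with an FDR of 2.5e-04. Thrb, the thyroid hormone receptor, was lower at -1.49 (FDR 2.6e-06). Hnf4a ran the other way with 22307, 23561 and 26046 against 17305, 13988 and 15878, an LFC of 0.61 ± 0.11 (SE), with an FDR of 5.0e-04, and Cebpb was also higher (0.79, FDR 0.0013).

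Most plasma protein genes did not pass the test. Of 34 plasma protein genes 6 were higher and 4 lower, with 3 higher when FeSO4/PBS mouse 1 or any NaCl/DEX mouse was left out and 2 lower without FeSO4/PBS mouse 1 or NaCl/DEX mouse 2. Scaling by library totals gave 3 higher and 7 lower. Alb had 1942427, 1882238 and 2150740.0 normalised reads with iron against 1768219, 1892767 and 2104816 with DEX, an LFC of 0.05 that did not pass the test (FDR 0.78). Among 24 P450 genes and their receptors 7 were lower, and besides Cyp2b10 these included Nr1i3 (CAR) and Ahr, at -1.32 (FDR 1.0e-04) and -1.30 (FDR 1.2e-04), and Cyp3a11 at -0.67 (FDR 0.0035). Of 34 genes of the urea cycle and amino acid breakdown 4 were higher and 3 lower, or 6 lower with scaling by library totals, with Slc25a15, the mitochondrial ornithine carrier, lower at -0.91 (FDR 0.0014) and Agxt, the glyoxylate aminotransferase, higher at 1.56 (FDR 8.2e-06). Beyond hepatocytes, 3 of 12 sinusoidal endothelial markers were higher and 3 lower, 4 of 12 stellate cell markers were higher and 1 lower, and 3 of 6 tested cholangiocyte markers were higher. Without FeSO4/PBS mouse 2, 3 stellate cell markers were lower, and none was without FeSO4/PBS mouse 1 or 3 or NaCl/DEX mouse 2 or 3.

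Genes that build ribosomes were higher under iron. Of 32 ribosome biogenesis factors 27 were higher, with a median LFC of 0.71. Rrp12, which exports pre-ribosomal subunits, had 706, 686 and 650.4 normalised reads with iron and 210.4, 189 and 167 with DEX, an LFC of 1.85 ± 0.15 (SE), with an FDR of 6.9e-07. Nop58, a core protein of box C/D particles, had 2606, 2229 and 2261 against 713, 599.9 and 715, an LFC of 1.81 ± 0.15 (SE), with an FDR of 7.5e-07. Of 35 cytosolic ribosomal protein genes 33 were higher, by small amounts, with a median LFC of 0.48 and no member above 1. FeSO4/PBS mouse 1 was the highest of its group in every member, and without it 20 were higher, with a median LFC of 0.29. Scaling by library totals gave 17.

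Proteasome and respiratory chain genes depended on single mice. Of 33 proteasome genes 14 were higher and 2 lower, with Psmd8, a lid subunit, the furthest at 1.10 (FDR 5.1e-06). Without FeSO4/PBS mouse 1, 6 were higher, and without NaCl/DEX mouse 1, 2 or 3 there were 8, 7 and 7, while the lower ones numbered 0 or 1 without any one mouse. Scaling by library totals gave 5 higher and 2 lower. Of 34 nuclear genes of oxidative phosphorylation 4 were higher, and 1 without FeSO4/PBS mouse 1, 10 without FeSO4/PBS mouse 3, 2 without NaCl/DEX mouse 1 and 0 without NaCl/DEX mouse 2. Scaling by library totals gave 0 higher and 1 lower.

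Genes of growth arrest and cell death were examined next. Of 22 p53 targets 10 were higher and 2 lower, with 0 lower without NaCl/DEX mouse 1 and 1 without FeSO4/PBS mouse 3 or NaCl/DEX mouse 3. The higher ones included Btg2, an antiproliferative gene, at 2623, 6329.5 and 3182 normalised reads with iron against 445, 483 and 378 with DEX (LFC 3.22, FDR 1.6e-05), and Plk3, a stress kinase, at an LFC of 2.47 (FDR 1.3e-05). Ccnd1 (cyclin D1), the driver of entry into the cell cycle, had 849, 1063 and 977 against 4962, 3779 and 5451, an LFC of -2.30 ± 0.26 (SE), with an FDR of 1.1e-05. Of 23 tested genes of apoptosis and necroptosis 13 were higher and 1 lower, with 2 lower without FeSO4/PBS mouse 2, NaCl/DEX mouse 1 or NaCl/DEX mouse 2 and 3 with scaling by library totals. Tnfrsf12a (FN14), the TWEAK receptor, had 1534, 1418 and 1393 against 97.7, 134 and 101, an LFC of 3.70 ± 0.17 (SE), with an FDR of 1.5e-08, and Tnfrsf1a, the main TNF receptor, was higher at 2.41 (FDR 1.0e-07). Cflar, an inhibitor of caspase 8, was the one that was lower (-0.72, FDR 5.0e-05).

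Of 20 tested hypoxia genes 7 were higher and 3 lower, and 6 were higher and 5 lower without FeSO4/PBS mouse 2. When single mice were left out, between 5 and 8 were higher. Hif1a, the hypoxia-inducible factor, was higher with 2039, 2885 and 2722 normalised reads against 881, 783 and 919, an LFC of 1.57 ± 0.17 (SE), with an FDR of 6.0e-06. Egln3, an oxygen sensor that it induces, was higher at an LFC of 0.87 (FDR 8.5e-04).

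The largest differences outside these lists were also read out. Arid5a, an RNA-binding protein that stabilises cytokine mRNAs, had 2875, 2716 and 2381 normalised reads with iron and 24.7, 28.2 and 39.3 with DEX, an LFC of 6.43 ± 0.30 (SE), with an FDR of 1.5e-08. Hcar2, the receptor for nicotinic acid and hydroxybutyrate, had 419, 452 and 214 normalised reads with iron against 0, 0.94 and 2.01 with DEX, the latter from 0, 1 and 2 reads. Ccdc180, a coiled-coil protein, had 273, 637 and 549.7 against 2.15, 0 and 0. Tub, the tubby protein, had 73.6, 202 and 111 and no read in any NaCl/DEX library, at least 42.7-fold higher. Slc25a47, a liver-specific mitochondrial carrier, had 77034, 65280.0 and 68727 against 9131, 10742 and 10384, an LFC of 2.80 ± 0.16 (SE), with an FDR of 4.1e-08.

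Among the largest falls, Greb1 and Mdm1 were high in the steroid mice alone of the 4 groups. Greb1, an oestrogen-responsive gene, had 5.04, 0 and 0 normalised reads with iron, 190.0, 58.3 and 62.4 with DEX and 0, 2.81 and 0 in NaCl/PBS mice (FDR 1.2e-04). Mdm1, a microtubule-binding protein, had 14.1, 37.6 and 30.6 with iron, 806, 448 and 352 with DEX and 24.5, 50.5 and 27.9 in NaCl/PBS mice, an LFC of -4.29 ± 0.45 (SE), with an FDR of 4.5e-06. Kcna2, a potassium channel, had 4.03, 1.02 and 2.55 normalised reads with iron, 106, 140.1 and 96.7 with DEX and 132, 99.1 and 167 in NaCl/PBS mice, an LFC of -5.43 ± 0.48 (SE), with an FDR of 1.1e-06, the steroid mice being near the untreated level. P2ry4, a nucleotide receptor, had 1.01, 7.12 and 7.65 normalised reads with iron against 94.5, 109 and 101 with DEX, an LFC of -4.28 ± 0.38 (SE), with an FDR of 1.2e-06. Celsr1, a planar polarity cadherin, had 73.6, 143 and 89.3 against 1286, 1795 and 1660.3, an LFC of -3.95 ± 0.29 (SE), with an FDR of 2.6e-07. Alas1, which starts haem synthesis, was lower at -1.06 (FDR 9.9e-05) and was above NaCl/PBS in both groups, at 0.91 and 1.97.

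Finally, the comparison was set beside one made from the other 6 mice, FeSO4/DEX against NaCl/PBS, which has the same difference in iron and the opposite difference in steroid and shares no mouse with it. There 1612 genes (11.6%) were higher and 1934 (14%) lower at the same FDR and LFC limits, and 3598 (26%) and 3648 (26.3%) without the LFC limit. Of the 1570 genes higher in FeSO4/PBS than in NaCl/DEX mice 70.5% were also higher in FeSO4/DEX than in NaCl/PBS mice, and 11 genes were lower. Of the 1439 genes lower in the first comparison 68.8% were also lower in the second, and 21 were higher. Across the 13857 genes the LFCs had a Pearson correlation of 0.784, given as a description, since genes of a library are not independent.

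The lists differed in how they behaved across the 2 comparisons. AP-1 genes were higher in both, 29 of 33 each time, with medians of 2.56 and 2.35. These values include members such as Fosl1 that had almost no reads in mice without iron. Cholesterol genes were lower in both, 19 and 20 of 29, with medians of -0.84 and -0.91. GR targets went from 18 higher and 11 lower to 34 higher and 3 lower, with a median of 1.77 in the second comparison. Iron without DEX gave nearly the same against those NaCl/PBS mice, with 33 higher and 3 lower, a median of 1.60 and an LFC of 4.05 for Fam107a. DEX without iron gave 28 higher and 2 lower against them, with a median of 1.25, so the change of reference group enters this shift. NF-kappaB and cytokine genes went from 24 higher and 2 lower to 10 higher and 4 lower, with medians of 1.76 and 0.23. The first of these values include members with no or few reads in NaCl/DEX mice. Among the 21 with at least 10 reads in every library the first comparison had 17 higher and 2 lower, with a median of 1.01. Of the GR targets past the FDR in both comparisons, 7 changed sign. Fam107a, Ddit4, Cyp2b10, Sgk1 and Lpin1 were among them, with LFCs of 4.02, 4.57, 1.56, 1.72 and 1.57 in the second against -4.99, -1.74, -2.98, -0.94 and -1.02 in the first, and the others were Tdo2 (0.48 against -0.65) and Il6ra (0.39 against -0.89). Hmox1 and Slc40a1 stayed at 6.10 and -2.01.

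**Figure D5:**
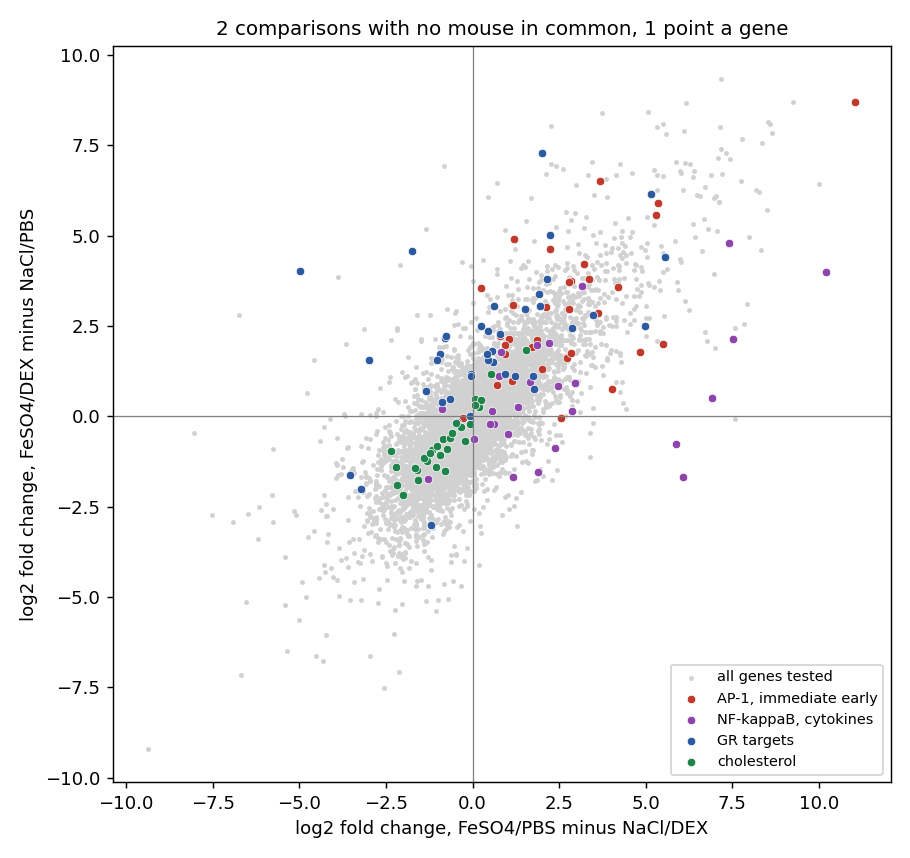
LFC of each tested gene between FeSO4/PBS and NaCl/DEX (horizontal axis) and between FeSO4/DEX and NaCl/PBS (vertical axis), both log2, with 4 gene lists in colour. The cloud runs along the diagonal, with AP-1 genes at the upper right and cholesterol genes at the lower left. Most GR targets lie above 0 on the vertical axis and to both sides on the horizontal one. Fam107a lies at the upper left and Tsc22d3 at the lower left. Several cytokine genes lie at the right near or below 0 on the vertical axis.

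The 2 groups outside the comparison were also placed against it by their means. Of the genes called higher, 97.7% had a FeSO4/DEX mean nearer to FeSO4/PBS than to NaCl/DEX, and of those called lower 92.9%, against 78.5% of all genes tested. The NaCl/PBS mean was nearer to NaCl/DEX in 84.5% of the genes called higher and 85.9% of those called lower, against 74.9% of all genes. Called genes were chosen by the difference between the FeSO4/PBS and NaCl/DEX means, which also served as the 2 end points here. The gap to the shares of all genes is therefore partly set by that choice. Promoter motifs were counted over all called genes as a description. The metal response core lay in 49.7% of promoters of genes called higher, 45.4% of those called lower and 48% of all, and the GR palindrome in 0.513%, 0.629% and 0.275%, the last shares resting on 8, 9 and 38 promoters. The cyclic AMP response element TGACGTCA lay in 2.18%, 1.47% and 1.9% and the hypoxia core TACGTG in 2.12%, 3.21% and 3.05%. Genes called lower held more long non-coding RNAs, 10.4% against 7.13% of those called higher and 5.14% of all tested.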

How the data were processed

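Livers of 12 mice (4 groups of 3) were profiled as stranded mRNA libraries. The authors mapped single-end reads to mm39 with STAR 2.7.10b and deposited raw read counts per Ensembl gene, and which strand column they took is not given in the sources used here. DESeq2 and FastQC are also named in the submitters' processing notes. Gene symbols came from GENCODE vM39 (54749 of 55414 genes), whose GRCm39 coordinates are printed.

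From the deposited counts, edgeR 4.0.16 in R 4.3.3 (TMM factors, filterByExpr, quasi-likelihood test, 1 mean per group over all 12 libraries) gave each LFC with its SE and Benjamini-Hochberg FDR over the 13857 genes tested. A normalised read is a count divided by its library size times TMM factor, times the mean of these products. Each library is 1 mouse, so p-values cover the spread between mice. Library totals ran from 16335651 to 23827340, TMM factors from 0.896 to 0.952 in FeSO4/PBS and from 1.02 to 1.06 in NaCl/DEX mice. Where all NaCl/DEX libraries were at 0, a lower bound used 3 reads per library, which covers counting error only. The procedure was tested on simulated data.

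The comparison, gene lists and alternatives were chosen with earlier results of these data known, so lists are described by counts and medians with no test. Named genes are the 12 largest changes in each direction without overlap between mice (LFC size above 1, mean of at least 100 normalised reads in the higher group), the first 3 members of each list, the up to 4 largest changes per list and direction, the 6 largest gains and losses of reads and the genes of the study's primer list. Ciart, Fga, Fmo2, Hamp, Id2, Id3, Jund, Myc, Ngp, Saa1, Sqstm1, Stfa2l1, Txnrd1 and the mitochondrial genes other than mt-Rnr2 were added after their values were seen, as was the recount of lists under each alternative. Promoters were the 250 bases before the start of the canonical transcript in GRCm39, used because the RefSeq promoter table was of another build, and the 11 shown were chosen after the search. Some genes are not reported here.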

Additional observations from a re-analysis of the deposited data

How the results depend on the processing

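The 1570 higher and 1439 lower genes became 1584 and 1461 with DESeq2, 1562 and 1443 with DESeq2 size factors in edgeR, 1747 and 1582 with no filter and 1388 and 1302 from the 6 libraries alone, and between 1495 and 1595 and between 1333 and 1486 when single mice were left out. The same ranges for FeSO4/DEX against NaCl/PBS were 1519 to 1683 and 1836 to 1942. The counts moved by over 1.5 times with at least 10 reads in every library (1011 and 952, and 1269 lower in FeSO4/DEX), which tests fewer genes, with no minimum fold change (3299 and 3122, and 3598 and 3648) and with a test against an LFC of 1 (821 and 524, and 938 and 863). Library totals alone gave 1285 and 1890, and 1114 and 3091 in FeSO4/DEX against NaCl/PBS, where the cause was not tested. Same-numbered mice of FeSO4/PBS and NaCl/DEX did not deviate together (correlations of -0.053, -0.042 and -0.092), so the numbers were not taken as pairs, and a replicate block gave 1542 and 1409, and 1594 and 1915. No FeSO4/PBS mouse correlated best with the NaCl/DEX mouse of its own number.

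Of 45 list medians, 14 changed sign under at least 1 alternative, each from within 0.30 of 0, and none of these medians is given as a value in the report. With library totals alone these were iron handling and plasma proteins (-0.032 and -0.091), interferon-stimulated genes (-0.13), gluconeogenesis (-0.12), P450 genes (-0.080), the urea cycle (-0.098), hepatocytes (-0.12), stellate cells (-0.024) and T, B and NK cells (-0.073). Without single mice they were GR co-factors (to 0.089), heat shock genes (to 0.0024), hypoxia genes (to 0.048), cell cycle genes without NaCl/DEX mouse 3 (leave-one-out range -0.40 to 0.27) and, again, interferon-stimulated genes, gluconeogenesis, P450 genes, the urea cycle, hepatocytes and T, B and NK cells. For 2 acinar genes the median changed sign with at least 10 reads or the 6 libraries alone (-0.27 and -0.26). Among genes named in the text, 1 small LFC that did not pass the test changed sign, that of Alb, with library totals alone (-0.11) and without FeSO4/PBS mouse 3 or NaCl/DEX mouse 1 (leave-one-out range -0.013 to 0.12). Of 2060 LFCs of 160 named genes under all alternatives, 2022 kept their direction and their side of the threshold, 21 of 4 genes (Abcc2, Mafg, Ttr and Vcam1) lost the call and 14 of 4 genes gained one. The fold changes of Atf3, Cidec, Cxcl1, Cyp7a1, Fgf21, Fos, Gdf15, Hilpda, Il1b, Lcn2, Osgin1, Pck1 and Per3 moved by over 1.5 times without 1 of the mice, with the same direction and call. At these depths 30401 of 55414 genes had no read in any library, so a difference in them was not detectable.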

Other observations

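The mitochondrial transcripts, chosen after their values were seen, did not move together. mt-Rnr2, the large ribosomal RNA, had 61278, 90000.0 and 70941 normalised reads in FeSO4/PBS mice and 8250.3, 11434 and 15018 in NaCl/DEX mice, an edgeR LFC of 2.68 ± 0.26 (SE), with an FDR of 2.2e-06. mt-Rnr1, the small ribosomal RNA, was higher at an LFC of 1.02 (FDR 0.0029). mt-Nd6, the protein gene of the light strand, was lower at -1.22 (FDR 4.1e-05), with 434, 435 and 359.6 normalised reads with iron against 1013, 844 and 1009.8 with DEX. mt-Cytb, a protein gene of the heavy strand, did not pass the test, at an LFC of -0.09 (FDR 0.66). The libraries were made for mRNA, and the strand column of the counts is not given. Whether the counts of ribosomal and light-strand RNA follow their amounts was not tested.

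The BMP-responsive Id genes and some flavin mono-oxygenases also differed. Id2 and Id3 were higher at LFCs of 4.90 (FDR 2.9e-08) and 3.97 (FDR 2.9e-08), beside Id1. Fmo2 and Fmo5, drug-oxidising enzymes, were lower at LFCs of -2.23 and -2.44 (FDR 1.1e-06 and 4.2e-07), and Fmo5 fell from 42579, 33999 and 39397 to 7225, 8951 and 5234 normalised reads.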
